A study of Mus musculus with 6 samples.

Results

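The 8 genes described here encode enzymes of heme synthesis: Alas1, Alas2, Alad, Uros, Urod, Cpox, Ppox and Fech. They were taken by gene name from a table of 13024 genes measured by RNA-Seq in mouse embryonic lenses at E14.5. Each library was made from polyA RNA of a pool of 10 lenses from 5 embryos, with 3 pools labelled Gata3 CKO and 3 control pools. The CKO embryos were Gata3 f/f; Pax6-Cre/+, in which Cre is driven by the ocular enhancer and P0 promoter of Pax6 and removes exon 4 of Gata3, a zinc-finger transcription factor, from the precursors of lens and cornea in the surface ectoderm. The control embryos carried no Cre; the sample labels call them wild type, the methods of the study Gata3 f/f and its results Gata3 f/wt, so which floxed alleles they held cannot be settled here. All embryos were of a mixed C57BL/6 and FVB background, and only the CKO pools carried the Pax6-Cre transgene.

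Heme is an iron-containing ring that binds oxygen in haemoglobin and carries electrons in the cytochromes. Its synthesis begins in the mitochondrion, where 5-aminolevulinate synthase joins glycine to succinyl-CoA; this is the rate-limiting step. Mammals have a pair of genes for that enzyme: Alas1 is used in all nucleated cells, while Alas2 is used in developing red cells and is a classical target of the erythroid factor GATA1. The enzymes encoded by Alad, Uros and Urod act next, in the cytosol, and those of Cpox, Ppox and Fech in the mitochondrion, where Fech inserts the iron. The lens itself holds no blood vessels, but at this stage it is wrapped in the hyaloid vasculature, which carries blood, so a dissected lens can bring red cells with it. In bulk RNA, fewer cells of a type and less RNA per cell cannot be told apart.

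The promoters of the heme genes are shown because GATA factors are the study's subject and Alas2 and Alas1 are controlled in different ways. RefSeq promoter windows of 250 bases before the start (GRCm38.p6) were searched for 7 of the 8 genes, 10 windows in all; the promoter of Fech was not analysed here. The GATA words sought were AGATAA, its variant AGATAG, the word TGATAA and its variant TGATAG, each read on both strands. In the windows below, capitals mark the GATA words. That of Alas2 lies on the forward strand at chrX:150547167-150547374 (208 bases, up to the base before the first GENCODE exon, which opens 42 bases ahead of the RefSeq start), and that of Cpox on the forward strand at chr16:58669958-58670207.

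Alas2: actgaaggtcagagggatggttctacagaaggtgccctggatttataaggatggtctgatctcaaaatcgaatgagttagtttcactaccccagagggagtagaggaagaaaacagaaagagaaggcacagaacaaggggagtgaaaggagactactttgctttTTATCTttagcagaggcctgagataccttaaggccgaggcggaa

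Cpox: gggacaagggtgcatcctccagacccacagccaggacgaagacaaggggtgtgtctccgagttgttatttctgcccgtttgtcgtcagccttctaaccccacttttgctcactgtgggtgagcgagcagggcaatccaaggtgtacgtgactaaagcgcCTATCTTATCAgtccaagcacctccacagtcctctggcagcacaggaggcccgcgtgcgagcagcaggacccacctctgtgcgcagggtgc

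The Alas2 window held 1 GATA word, 86 bases before the RefSeq start, written TTATCT on the forward strand. The Cpox window held 2 overlapping words, 91 and 86 bases before the start. One Uros window also held 2 words, 205 and 68 bases before a start that lies 7572 bases from the GENCODE gene start. GATA words thus stood in 3 of the 10 windows searched (30%), beside 26.6% of 32817 windows of all genes. Nearer the start, between 42 and 26 bases before it, Alas2 held 4 matches to CCNCNCCC on the reverse strand, 3 of which overlapped, letters bound by KLF factors. These letters stood in 6 of the 10 windows, those of Alas1, Alas2, Alad and Uros among the genes, and in 45.9% of all windows. The Alad windows overlap, so some of the same letters were counted in both. None of these matches shows that a factor was bound.

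Alas1 had no GATA word in either of its 2 windows. One of them held the letters GCATGCGC, which match the motif of NRF1, a regulator of genes for mitochondrial proteins. The 30 bases around it, on the reverse strand at chr9:106247906-106247935 and inside a 5′ untranslated exon of a longer GENCODE transcript, are given with the motif and its overlapping match on the other strand in capitals.

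Alas1: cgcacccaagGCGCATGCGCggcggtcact

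Of the 7 genes searched, Alas1 alone had this match; 2.25% of all windows held it.

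Each library held 15157230 to 18811104 counts. Values are CPM, that is, counts after division by library size and edgeR's TMM factor. A gene was tested where 3 or more libraries held 10 or more of its counts, which kept 12879 of the 13024 genes and all 8 heme synthesis genes. The lens label fitted the counts, of which the 16 crystallin genes took 5.47% to 16.5%. Control replicate 2 stood apart from the other libraries on the leading principal component (43.1% of the variance). It had the highest share of crystallin counts, a 12-gene lens marker sum 2.54 times the mean of the other 5 libraries and a retina marker sum of 0.566 times that mean. The results that rest most on it are therefore given with and without it. The targeted gene, Gata3, was at 12.8, 27.2 and 8.71 CPM in the control libraries, against 59.0, 54.1 and 46.5 CPM in those labelled CKO. The count was thus higher in every library labelled CKO (log2 fold change 1.72, SE 0.40, edgeR adjusted p = 0.650, DESeq2 adjusted p = 0.00163). A count over the whole gene does not show whether exon 4 was present, so it does not check the labels.

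All 8 genes were expressed in every library, between 16.1 and 145 CPM, and counting error was 2.21% to 5.87% of each value. None passed the test between the groups after adjustment. At an unadjusted p under 0.05, edgeR's quasi-likelihood test gave 1 of the 8 genes, Alad, against 3.55% of all genes tested (457 of 12879), of which 2.24% were lower and 1.30% higher in CKO. After adjustment over all genes it gave 0 of the 8 and 0 of 12879 (0%). DESeq2 gave 2 of the 8 unadjusted, Alad and Alas2, against 3.94% of all genes, and 0 of the 8 adjusted, against 0.660% of all genes (85). The CPM values of the groups did not overlap for 1 of the 8, Alad, which was lower in CKO; over all genes this held for 8.36% in either direction, 4.69% lower and 3.67% higher. The fitted log2 fold change was below 0 for 6 genes and above 0 for 2, with a median of -0.09 against 0.00 over all genes. These shares and medians are a description of a list chosen by function.

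**Figure D1:**
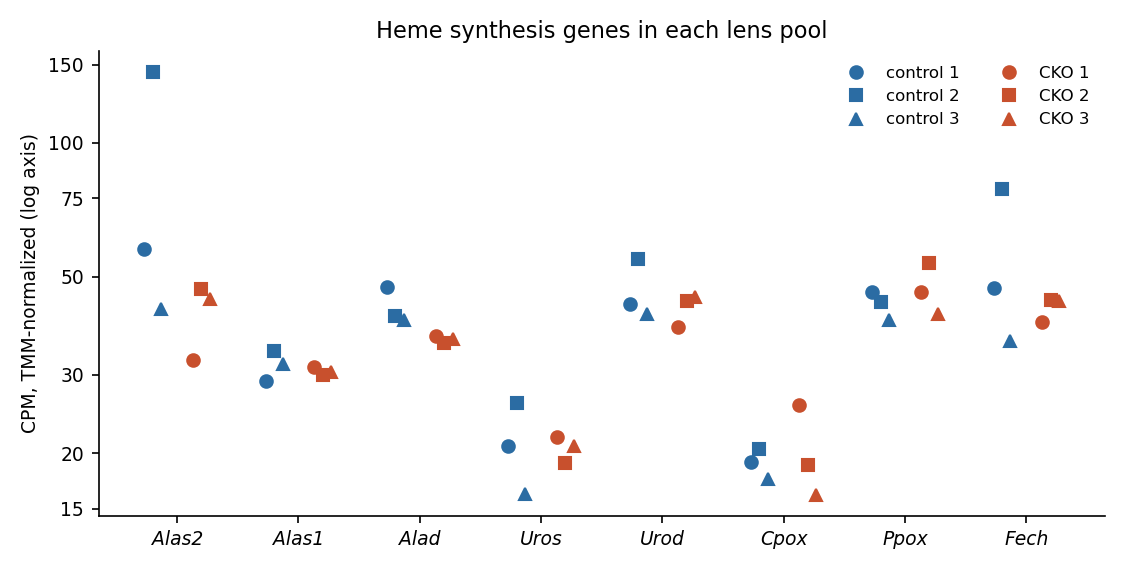
CPM of the 8 heme synthesis genes in each of the 6 lens pools, on a log axis, with control in blue, CKO in red and the replicate number shown by the symbol. Alas2 reached 145 CPM in control replicate 2 against 32.4 to 57.6 in the other pools, while Alas1 lay between 29.1 and 33.9 in all of them.

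Alas2, the erythroid synthase, lies on the forward strand of chromosome X (150547375 to 150570638, GRCm38). In control replicates 1 to 3 it was at 57.6, 145 and 42.3 CPM, against 32.4, 46.9 and 44.6 CPM in CKO replicates 1 to 3. Control replicate 2 was 3.23 times the mean of the other 5 libraries, and the remaining control values overlapped those of CKO. Control pools averaged 81.5 ± 55.2 CPM (SD, n = 3), CKO pools 41.3 ± 7.80 CPM (SD, n = 3). The log2 fold change was -0.98 (SE 0.46, 95% interval -2.07 to 0.12, edgeR adjusted p = 0.9998), with an unadjusted p of 0.0721 in edgeR and 0.0192 in DESeq2. Without control replicate 2 it was -0.26 (SE 0.21, edgeR adjusted p = 0.945), and without control replicate 3 it was -1.29 (SE 0.40, edgeR adjusted p = 0.495). The difference between the groups was thus smaller than the spread between control pools.

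Alas1, the synthase of all nucleated cells, lies on the reverse strand of chromosome 9 (106233455 to 106248654). It had 29.1, 33.9 and 31.8 CPM in the control replicates and 31.3, 29.95 and 30.4 in the CKO replicates, and the groups overlapped. Control pools averaged 31.6 ± 2.38 CPM (SD, n = 3), CKO pools 30.5 ± 0.654 CPM (SD, n = 3). Their log2 fold change was -0.05 (SE 0.09, 95% interval -0.26 to 0.16), which bounds the fold between 0.833 and 1.12.

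The 2 synthase genes differed in how much they varied between pools. The highest Alas2 value was 4.46 times the lowest, against 1.16 times for Alas1, and without control replicate 2 these were 1.78 and 1.09 times. The SD of log2 CPM over the 6 libraries was 0.75 for Alas2, above that of 96.6% of the genes tested, and 0.08 for Alas1, above that of 11.4%. Counting error alone would give an SD of 0.05 for Alas2 and 0.06 for Alas1, so the spread of Alas1 was close to that of counting. Without control replicate 2 the SD was 0.30 for Alas2 and 0.05 for Alas1. Among the other genes the SD was 0.40 for Fech and 0.15 to 0.23 for the remaining 5, and that of Fech was 0.16 without that library.

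**Figure D2:**
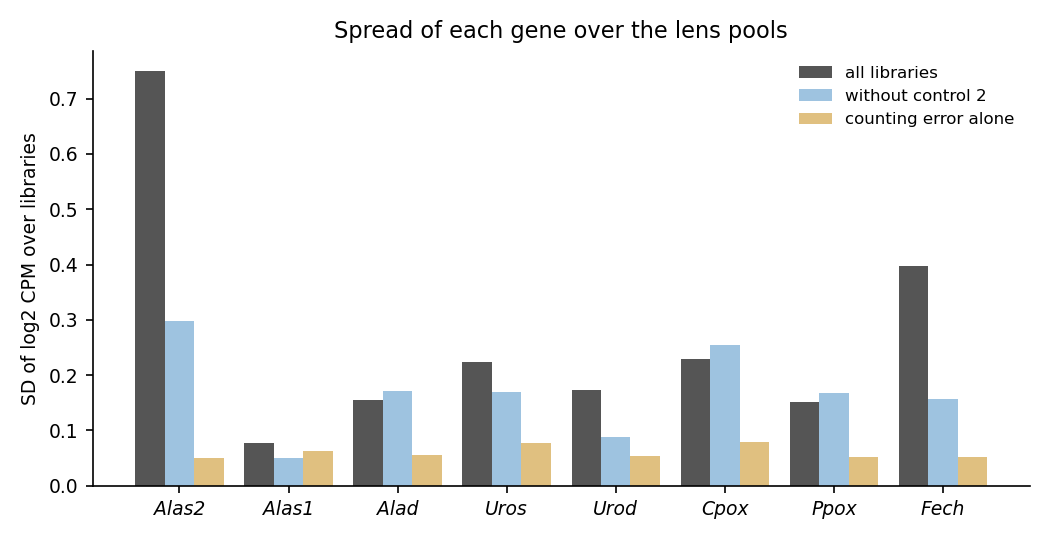
SD of log2 CPM over the lens pools for each heme synthesis gene, over all 6 libraries (grey), without control replicate 2 (blue) and as counting error alone would give (tan). The bar of Alas2 is the tallest at 0.75 and that of Alas1 the shortest at 0.08, next to its counting error of 0.06.

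The longest stretch of letters that the transcripts of both synthases share in GENCODE was 20 bases, catgcctccatgatccaagg, so a read longer than that could not match both exactly. Both genes share exon sequence with a gene on the opposite strand: Alas2 shares 311 bases (12.9% of its exon bases) with Apex2 and Alas1 shares 465 with 4930500F10Rik. The libraries were stranded, but the strand setting of the counting is not given in the sources used here, so these bases are uncertain.

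Per kilobase of exon, Alas2 exceeded Alas1 in every library. The ratio of their CPM per kilobase came to 5.07, 11.0 and 3.41 for control replicates 1 to 3, against 2.67, 4.03 and 3.76 for CKO replicates 1 to 3. The ratio was highest in control replicate 2 and lowest in CKO replicate 1, and the groups overlapped. The log2 ratio was lower in CKO by a mean difference of -0.74 (exact two-sided permutation p = 0.3, where 3 pools against 3 cannot go below 0.1), and by -0.28 without control replicate 2. The size of the ratio depends on the lengths used: with the longest transcript of each gene in place of all exons it was 1.73 to 7.11, still above 1 in every library. The difference between the groups does not depend on the lengths, which cancel.

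Because Alas2 is an erythroid gene, it was set beside the haemoglobin genes of the same library. Of 10 haemoglobin genes listed, 3 had counts: Hbb-y, Hba-x and Hbb-bh1, the embryonic globins of primitive red cells. Another 4, Hba-a2, Hbb-b1, Hbb-bs and Hbb-bt, which include the adult globins, were listed at 0 in all libraries. Hbb-bs and Hbb-bt are identical over 430 bases and Hba-a1 and Hba-a2 over 415, so the placing of their reads is uncertain. The table kept genes by mean FPKM, a value made apart from these counts. The zeros therefore do not show that adult globin RNA was absent, and the globin sum used here covers the embryonic globins alone. Hbb-y made up most of the sum, averaging 627 ± 428 CPM over the control pools (SD, n = 3) against 316 ± 65.1 CPM over the CKO pools (SD, n = 3). The 3 globins together reached 518, 1236 and 339 CPM in control replicates 1 to 3, against 271, 404 and 399.9 CPM in CKO replicates 1 to 3. Control replicate 2 was again the highest, 3.20 times the mean of the other 5, and CKO replicate 1 the lowest.

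Alas2 stood in a nearly fixed proportion to these globins. For every 100 globin counts, control replicates 1 to 3 held 11.1, 11.7 and 12.5 Alas2 counts and CKO replicates 1 to 3 held 11.96, 11.6 and 11.2. The highest of these values was 1.12 times the lowest, while the globin sum itself differed 4.56-fold between pools, and 1.91-fold without control replicate 2. The groups overlapped, and the log2 ratio differed by -0.02 between CKO and control (exact two-sided permutation p = 0.8). Against the beta-like globins alone the difference was -0.0027 (exact permutation p = 1), and against alpha-like Hba-x alone it was -0.18 (exact permutation p = 0.2).

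Over the 6 libraries, log2 CPM of each of the 8 genes was correlated with that of the globin sum, 8 relations in all, with exact permutation p-values. Both measures of a pair come from the same library. For Alas2, Pearson's r was 0.997 (exact permutation p = 0.00278, adjusted over the 8 relations 0.0222) and Spearman's rho was 1 (exact permutation p = 0.00278, adjusted 0.0222). Without control replicate 2 and CKO replicate 1, the libraries farthest from the median, r was 0.973. The slope was 0.98 on log2 axes, so Alas2 and the globins differed between pools by nearly the same factor.

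For Fech, the ferrochelatase that closes the pathway, the relation did not pass after adjustment. Its r was 0.966 (exact permutation p = 0.0306, adjusted 0.0815) and rho was 0.943 (exact permutation p = 0.0167, adjusted 0.0667), with r at 0.880 without those 2 libraries and a slope of 0.50; slopes were not compared by a test. Urod had an r of 0.965 (exact permutation p = 0.0167, adjusted 0.0667), rho of 0.771 (exact permutation p = 0.103, adjusted 0.274) and a slope of 0.22, but r was 0.478 without the 2 libraries, so its relation rested on them. For Alas1, r was 0.540 (exact permutation p = 0.339, adjusted 0.530), rho was -0.09 (exact permutation p = 0.919, adjusted 0.919) and r without the 2 libraries was -0.948. The other 4 genes had r between -0.09 and 0.686, with adjusted exact permutation p-values from 0.317 to 0.967, and rho between 0.09 and 0.429, with adjusted p-values from 0.752 to 0.919. Each group holds too few libraries for a value within it.

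**Figure D3:**
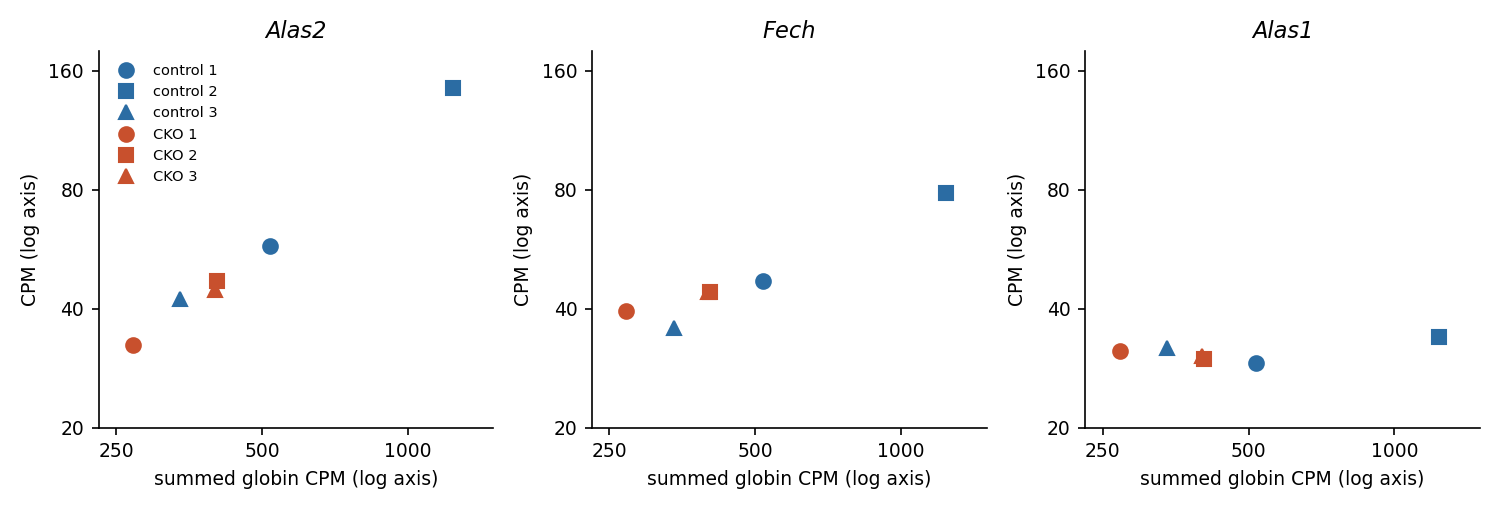
CPM of Alas2, Fech and Alas1 against the summed CPM of the 3 embryonic globins in the same pool, both on log axes, with control in blue and CKO in red. Alas2 climbs with the globins from 32.4 to 145 CPM, Fech from 35.8 to 78.8, and Alas1 stays between 29.1 and 33.9.

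Other marker sums also moved with control replicate 2, though Alas2 followed them less closely. The SD over libraries of the log2 ratio of Alas2 to a marker sum was 0.06 for the globins, 0.35 for the lens list, 0.38 for the macrophage list, 0.48 for 12 red cell markers other than haemoglobin and Alas2, 0.61 for vessels and 1.09 for retina. Without control replicate 2 the same values were 0.07 for the globins, 0.36 for lens, 0.14 for macrophages, 0.33 for the red cell markers, 0.17 for vessels and 0.42 for retina, so the distance to macrophages and vessels was smaller there. Relative to the mean of the other 5 libraries, control replicate 2 had 1.74 times the other red cell sum, 1.76 times the macrophage sum and 1.19 times the vessel sum. The other red cell sum ranged from 939 to 1551 CPM in control and from 797 to 935 in CKO, with no summed marker at 0 in all libraries, and Slc4a1, the anion exchanger of the red cell, was at 14.9 to 53.5 CPM. The part of red cells in the Alas2 values was not tested apart from these ratios.

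Without reference to any list, the gene with the pattern most like that of Alas2 over all 6 libraries was Hbb-y. Likeness was the SD over the 6 libraries of the log2 ratio to Alas2, and 12878 genes were ranked by it. Hbb-y (SD 0.07) and Hba-x (0.15) came at ranks 1 and 2. They were followed by Hmox1, which encodes heme oxygenase, the enzyme that opens the heme ring (0.16), and by Pgm5, Prdm16, Mafa, Hist1h1e, Eya1, Gadd45g and Scarf1 (0.19 to 0.26). The third globin, Hbb-bh1, was at rank 191 (0.41), the red cell gene Slc4a1 at rank 1554, and 6 lens genes looked up beside them ranged from rank 41 (Mip) to rank 11870 (Crygb). Fech was the nearest other heme synthesis gene, at rank 127 (0.39), and Alas1 was at rank 4111 (0.71). Alas1 was most like Snhg17, Nfyc, Prpsap1, Eif2b2 and Nacc1 (SD 0.02 to 0.03), all of which barely varied. The likenesses to Alas2 rested on control replicate 2. Without it, in a ranking added after seeing the data, Hbb-y came at rank 7 (SD 0.07), Hba-x at rank 128 (0.16) and Hmox1 at rank 177 (0.17), and Nhej1 (0.04), a DNA repair gene, was first. The SD of each of these 3 genes to Alas2 thus stayed close to its value over all 6 libraries, while many more genes came as near to Alas2 once that library was left out. All these likenesses are a description.

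The cytosolic enzymes come next in the pathway. Alad, on chromosome 4 (62509169 to 62519918, reverse strand), encodes aminolevulinate dehydratase, which makes porphobilinogen. It had 47.3, 40.8 and 39.8 CPM in control and 36.8, 35.4 and 36.1 in CKO. With the TMM factors, all CKO values lay below all control values, by as little as 39.8 against 36.8. Control pools averaged 42.6 ± 4.04 CPM (SD, n = 3), CKO pools 36.1 ± 0.682 CPM (SD, n = 3), and the log2 fold change was -0.24 (SE 0.09, 95% interval -0.46 to -0.02, edgeR adjusted p = 0.9998). Its unadjusted p was 0.0373 in edgeR and 0.0478 in DESeq2, and the exact permutation p was 0.1, the lowest that 3 against 3 can give. Leaving out 1 library at a time kept the log2 fold change between -0.29 and -0.14, the latter without control replicate 1, where the unadjusted edgeR p was 0.173.

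Uros, on chromosome 7 (133686243 to 133710072, reverse strand), encodes uroporphyrinogen III synthase. It had 20.8, 25.9 and 16.2 CPM in control and 21.8, 19.0 and 20.8 in CKO, so the CKO values lay inside the control range (log2 fold change -0.03, SE 0.18, 95% interval -0.46 to 0.39). Urod, on chromosome 4 (116989965 to 116994413, reverse strand), encodes the decarboxylase that acts on its product. It had 43.4, 54.9 and 41.1 CPM in control and 38.6, 43.9 and 44.9 in CKO, and the groups overlapped (log2 fold change -0.13, SE 0.13, 95% interval -0.44 to 0.18).

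Of the mitochondrial enzymes, Cpox, coproporphyrinogen oxidase on chromosome 16 (58670292 to 58717636, forward strand), had 19.1, 20.4 and 17.5 CPM in control and 25.7, 18.8 and 16.1 in CKO. Ppox, protoporphyrinogen oxidase on chromosome 1 (171275990 to 171281186, reverse strand), had 46.2, 43.9 and 39.9 in control and 46.0, 53.6 and 41.2 in CKO. Both had the highest value in a CKO library, CKO replicate 1 for Cpox and CKO replicate 2 for Ppox, and their groups overlapped. The log2 fold changes were 0.09 (SE 0.18, 95% interval -0.35 to 0.52) and 0.12 (SE 0.12, 95% interval -0.17 to 0.40). Ppox shares 791 exon bases, 17.5% of its exon sequence, with B4galt3 on the opposite strand, so its values carry that uncertainty.

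Fech, on chromosome 18 (64452914 to 64490251, reverse strand), had 47.1, 78.8 and 35.8 CPM in control and 39.4, 44.2 and 44.0 in CKO. Control replicate 2 was the highest, at 1.87 times the mean of the other 5 libraries, and control replicate 3 the lowest. Control pools averaged 53.9 ± 22.3 CPM (SD, n = 3), CKO pools 42.5 ± 2.71 CPM (SD, n = 3), with a log2 fold change of -0.34 (SE 0.28, 95% interval -0.9997 to 0.32, edgeR adjusted p = 0.9998). Without control replicate 2 the sign turned, to 0.05 (SE 0.13), and without control replicate 3 the value was -0.56 (SE 0.21).

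**Figure D4:**
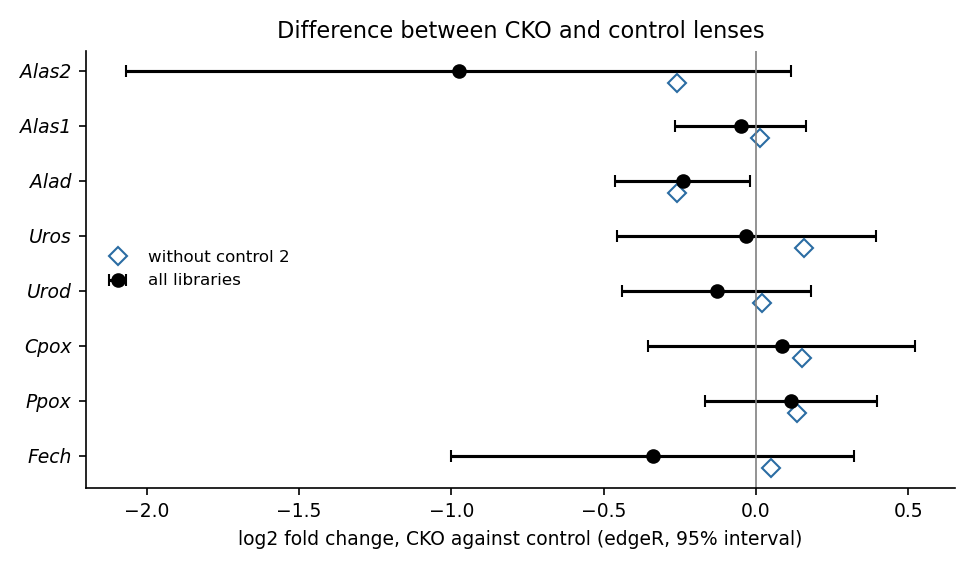
Log2 fold change of each gene between CKO and control from edgeR, as a black point with its 95% interval, and the value without control replicate 2 as an open diamond. The interval of Alad, -0.46 to -0.02, is the only one that does not cross 0, and Alas2 moves from -0.98 to -0.26 without that library.

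Levels of different genes were compared per kilobase of exon, as the mean over the 6 libraries. Alas2 was at 25.6 ± 17.3 CPM per kilobase (SD, n = 6), Alad at 21.0 ± 2.36, Urod at 17.2 ± 2.16, Ppox at 10.0 ± 1.08, Uros at 5.80 ± 0.900, Alas1 at 5.04 ± 0.270, Fech at 3.48 ± 1.12 and Cpox at 2.94 ± 0.498. In that order the ranges of neighbours overlapped except between Urod and Ppox and between Ppox and Uros. Alas2 led by its value in control replicate 2, and it was above Alad in only 2 of the 6 libraries. With the longest transcript matched to RefSeq as the length, a choice made after seeing the data, Alad led with 31.6 CPM per kilobase, ahead of Alas2 with 30.1 and Urod with 29.9.

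Genes around the pathway were read from lists of known function. Of 15 genes for carrying heme and its precursors, 12 were tested and 0 had an unadjusted p under 0.05 in edgeR or DESeq2, with 9 lower and 3 higher in CKO. The most abundant were Pgrmc1 (165 ± 14.7 CPM in control, 166 ± 5.48 in CKO; SD, n = 3) and the mitochondrial carrier Slc25a39 (95.8 ± 23.7 and 88.7 ± 7.06). Of 17 genes of iron uptake, storage and iron-sulfur supply, 16 were tested and 0 passed, with 7 lower and 9 higher. The ferritin subunits Fth1 and Ftl1, which store iron, had log2 fold changes of -0.22 (SE 0.18) and -0.21 (SE 0.17). Heme proteins of other cells gave 0 of 14 tested, such as catalase (Cat, 101 ± 4.28 and 96.5 ± 3.34 CPM) and cytochrome c1 (Cyc1, 91.7 ± 10.5 and 89.1 ± 7.19).

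The 4 genes of heme breakdown had fitted values below 0 (median -0.32), as did 6364 of all 12879 genes tested. Of the 4, 1, Hmox1, had an unadjusted p under 0.05 in edgeR and in DESeq2, against 3.55% and 3.94% of all genes. All 7 macrophage markers tested were below 0 as well (median -0.47, 1 with an unadjusted p under 0.05 in edgeR and 2 in DESeq2). The macrophage sum ranged from 72.4 to 136 CPM in control and from 60.9 to 85.6 in CKO. The part of macrophages in these values was not tested. Hmox1 had 19.3, 47.8 and 13.4 CPM in control and 11.7, 13.5 and 11.9 in CKO. Control replicate 2 was the highest here too, and the groups overlapped at 13.4 and 13.5. The log2 fold change was -1.11 (SE 0.46, edgeR adjusted p = 0.9998, unadjusted p = 0.0471), with the Alas2 value at -0.98 beside it. Without control replicate 2 it was -0.39 (SE 0.19, edgeR adjusted p = 0.875). The constitutive oxygenase Hmox2 had a log2 fold change of -0.07 (SE 0.11).

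Of 13 regulators of heme synthesis genes, 10 were tested, with 7 lower and 3 higher in CKO (median -0.05). Of these 10, 2 had an unadjusted p under 0.05 in edgeR, against 3.55% of all genes, and 2 in DESeq2, against 3.94%. The erythroid factors Gata1, Tal1 and Nfe2 were not analysed here. Klf1, another erythroid factor, had low values (0.670 to 2.72 CPM, log2 fold change 0.58, SE 0.62). Klf1 did not share the pattern of Alas2 (likeness rank 12548 of 12878). The ubiquitous factors Nrf1 and Bach1 were at 65.8 ± 7.80 and 77.0 ± 11.2 CPM (SD, n = 3) in control and 67.9 ± 2.08 and 73.9 ± 5.40 in CKO. Zfpm1, which encodes the GATA cofactor FOG1, had 25.7, 35.4 and 22.8 CPM in control and 19.8, 18.7 and 16.5 in CKO. Its groups did not overlap, which held in that direction for 4.69% of all genes. The log2 fold change of Zfpm1 was -0.61 (SE 0.18, edgeR adjusted p = 0.979, unadjusted p = 0.0121), and -0.39 (SE 0.13) without control replicate 2. Epas1, which encodes HIF-2α, had a log2 fold change of -0.67 (SE 0.28, edgeR adjusted p = 0.9998, with an unadjusted p of 0.0493), and -0.54 (SE 0.32) without that library. Of 13 tested red cell genes other than haemoglobin, Alas2 among them, 10 were lower and 3 higher in CKO (median -0.42). Of these 13, 2 had an unadjusted p under 0.05 in edgeR, against 3.55% of all genes, and 4 in DESeq2, against 3.94%. Among the 2 was Ermap, a red cell membrane protein (26.6 ± 12.9 CPM in control and 5.77 ± 2.75 in CKO, log2 fold change -2.21, edgeR adjusted p = 0.614, DESeq2 adjusted p = 0.000355; log2 fold change -1.75 without control replicate 2). Ermap did not share the pattern of Alas2 (likeness rank 11511 of 12878).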

How the data were processed

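RNA-Seq of 6 pools of E14.5 mouse lenses was analysed, 3 labelled Gata3 CKO and 3 control (wild type in the labels), numbered as in the sample titles; the descriptions number the CKO libraries 2 to 4. Per the labels and the methods of the study, paired-end reads were trimmed with Trim Galore and aligned to mm10 with TopHat2 2.0.13. The authors deposited raw counts of fragments per RefSeq gene from HTSeq 0.6.1, for genes whose mean FPKM by Cuffdiff 2.2.1 passed 1 in a group at least, so genes under that level were not analysed here. The strand and overlap options of the counting are not given in the sources used here. No pairing of the pools is given in the sources used here, and p-values measure the spread between pools of embryos.

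Counts were tested on the whole table in edgeR 4.0.16 (R 4.3.3; TMM, robust quasi-likelihood fit, 10 or more counts in 3 or more libraries, Benjamini-Hochberg adjustment at 0.05). DESeq2 1.42.0, other normalizations and filters, a replicate block and leaving out each library were alternatives. Ratios used an offset of 0.5 counts and two-sided exact permutation tests (Python 3.11.15, scipy 1.17.1); plots were made in matplotlib 3.10.9. The edgeR and likeness steps were tested on simulated data. Positions, exon lengths and transcripts came from GENCODE M21 (GRCm38, the assembly of mm10), and promoters from RefSeq (GRCm38.p6). Intervals cover what their test covers; counting error is Poisson only.

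Library depth was 15157230 to 18811104 counts, at which the heme genes had 290 to 2052 counts each. For Alas1 the spread between pools was close to counting error (SD of log2 CPM 0.08 against 0.06 from counting alone). For the other heme genes that spread, and not depth, sets the precision. The members and gene lists were chosen with earlier results of these data known. Named genes were all members, Gata3, the haemoglobin genes, the 4 most abundant of each other list and those with an unadjusted p under 0.05, and the genes nearest Alas2 (10) and Alas1 (5); some are not reported here. Rankings of the lens genes, Slc4a1 and Ermap were looked up after their values were seen, and the rankings, ranges and fold changes of genes other than the members without control replicate 2 were added after seeing the data.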

Additional observations from a re-analysis of the deposited data

How the results depend on the processing

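The spread between pools, 3 in each group, limits the comparisons. For Cpox and Ppox the CKO pools spread more than the control pools (SD 4.93 against 1.48 CPM and 6.27 against 3.16 CPM), and for the other members less. The direction of Alas2, Alad and Ppox held under all 15 alternatives, with Alas2 between -1.29 and -0.26, Alad between -0.29 and -0.14 and Ppox between 0.01 and 0.22; the lowest edgeR or DESeq2 adjusted p over all members and alternatives was 0.495. Leaving out 1 library gave ranges of -0.089 to 0.014 for Alas1, -0.19 to 0.16 for Uros, -0.21 to 0.019 for Urod, -0.12 to 0.22 for Cpox, -0.56 to 0.050 for Fech, -0.061 to 0.022 for the log2 ratio of Alas2 to the globins and -1.12 to -0.28 for that of Alas2 to Alas1. Uros, Urod, Alas1 and Fech were above 0 without control replicate 2, Uros also without CKO replicate 2, and Cpox below 0 without CKO replicate 1. Scaling by library size alone moved the median of all genes to 0.10 and turned Alas1 to 0.057 and Uros to 0.089, about that shift. Genes with an adjusted p under 0.05 numbered 0, but 85 by DESeq2 and 1 by library size alone, and 0 to 1 leaving out 1 library (1 without control replicate 3). Genes with an unadjusted p under 0.05 numbered 457, and 271 to 1234 leaving out 1 library (806 without control replicate 2, 1234 without control replicate 3, 271 without CKO replicate 3); the cause was not tested. With the replicate number of the titles as a block, 516 genes had an unadjusted p under 0.05, of which 0 were members. Alas2 was at -0.80 and Alad at -0.24 in that fit. Deviations of same-numbered libraries correlated at -0.487, 0.09 and 0.443, and those of differently numbered libraries at -0.481 to 0.559. With 3 libraries in each group, these values cannot decide whether the pools were paired. By the longest transcript Alad came to rank 3 and Urod to rank 2 in level, and by the RefSeq-matched length Alas2 to rank 2 and Alad to rank 1.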

Other observations

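Marker lists of other tissue that a dissected lens can carry were read beside the heme genes. The mesenchyme sum was 295 to 2200 CPM in control and 334 to 3860 in CKO, the pigment cell sum 69.8 to 341 and 72.6 to 341, and the surface ectoderm sum 38.3 to 93.2 and 54.5 to 146. Alas1 followed none of these closely, with an SD of the log2 ratio of 1.55, 1.13 and 0.70, and neither did Alas2, with 1.59, 1.28 and 0.83. Of the 6 pigment cell, 8 mesenchyme and 6 surface ectoderm markers tested, 0 had an unadjusted p under 0.05 between CKO and control in edgeR or DESeq2.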
